A study of Homo sapiens with 12 samples.

Results

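The genes of fatty acid synthesis and fatty alcohol formation were examined for open chromatin in MIAPaCa2 cells, an established human pancreatic ductal adenocarcinoma line. The 10 genes were FAR1, FAR2, FASN, ACACA, ACACB, SCD, ACSL1, ACSL3, ACSL4 and ELOVL6, out of 59098 genes on chromosomes 1 to 22 and X. Each was represented by its window, the RefSeq gene span on GRCh38 plus 5 kb on both sides, and by the ATAC-seq peaks that overlapped the window. ATAC-seq uses the Tn5 transposase to cut and tag accessible DNA, and a peak is a stretch where tagged fragments pile up above background. The libraries fell into 4 groups of 3: parental cells without oxamate, parental cells with oxamate, resistant cells without oxamate and resistant cells with oxamate. Oxamate is a competitive inhibitor of lactate dehydrogenase A, and untreated cells received phosphate-buffered saline. The resistant cells were a polyclonal population that had grown out of the same line under continuous oxamate, so the untreated resistant group had also met the drug before. Nothing states that the 3 libraries of a group came from separate cultures, and p-values then measure only the spread between libraries, which may be technical.

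Fatty acid synthesis starts when acetyl-CoA carboxylase makes malonyl-CoA, which fatty acid synthase extends to palmitate. Elongases and desaturases lengthen and unsaturate the product, acyl-CoA synthetases activate fatty acids by joining them to coenzyme A, and fatty acyl-CoA reductases turn the activated acids into fatty alcohols for ether lipids and wax esters. Tumour cells often make their own fatty acids, and several of these genes are known targets of the sterol regulatory element binding proteins, which act together with NF-Y and Sp1 at promoters.

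The lists held between 45748 and 62414 peaks per library on these chromosomes. They covered 20.4 ± 4.40 Mb (SD, n = 6) in parental against 27.7 ± 4.24 Mb (SD, n = 6) in resistant libraries. The smallest peak width, which follows the mean fragment length in the caller's paired-end mode, lay between 67 and 87 bp in parental and between 94 and 124 bp in resistant libraries and did not overlap. Relative depth, estimated from the lists with the shallowest library at 1, was 1.91 ± 0.549 (SD, n = 6) in parental against 1.25 ± 0.332 (SD, n = 6) in resistant libraries and reached 2.77 in a treated parental library. Covered bases are therefore given in bp and, where a result rests on them, also divided by the library's covered total or by its smallest width. The epithelial and pancreatic markers KRT8, KRT18, KRT19, EPCAM, CDH1 and SOX9, and the mesenchymal marker VIM, all had a peak in their window in 12 libraries. Of these only KRT8 and VIM had a listed start, with a peak there in 7 and 12 libraries. Of the markers of other cell types, CD3E and ALB had a peak in 0 libraries, PTPRC and PTF1A in 2, and PECAM1 and COL1A1 in 12.

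The set of 34961 start windows used here held 17 listed starts for 9 of the 10 genes and none for FASN. The set does not cover every gene, so a missing entry does not mean that RefSeq has no start there. The sequences below are the 250 bases before a start, read 5' to 3' on the gene's strand from RefSeq (GRCh38.p14). They were chosen because their starts differed in whether and how strongly they were open. Capitals mark the letters CCAAT or ATTGG, the NF-Y motif, GGGCGG or CCGCCC, the GC box bound by Sp1 proteins, and TCACNCCAC or GTGGNGTGA, a sterol response element. FAR1 is on chr11:13668418-13668667, plus strand. FAR2 is on chr12:29149028-29149277 and, for the inner start, chr12:29223416-29223665, plus strand. ACACB is on chr12:109154429-109154678, plus strand. ACSL1 is on chr4:184825969-184826218 and, for the innermost start, chr4:184805554-184805803, minus strand. ELOVL6 is on chr4:110198616-110198865, minus strand.
FAR1: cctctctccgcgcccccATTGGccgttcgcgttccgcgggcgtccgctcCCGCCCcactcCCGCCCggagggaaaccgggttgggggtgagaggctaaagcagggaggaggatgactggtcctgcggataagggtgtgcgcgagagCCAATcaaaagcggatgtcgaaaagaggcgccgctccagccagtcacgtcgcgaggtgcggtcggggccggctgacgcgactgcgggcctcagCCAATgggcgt
FAR2 upstream start: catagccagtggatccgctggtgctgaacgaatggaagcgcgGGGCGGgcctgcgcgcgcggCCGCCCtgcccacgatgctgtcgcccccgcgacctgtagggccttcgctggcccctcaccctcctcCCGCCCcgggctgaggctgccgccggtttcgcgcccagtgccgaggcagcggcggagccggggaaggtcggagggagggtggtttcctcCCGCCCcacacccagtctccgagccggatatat
FAR2 inner start: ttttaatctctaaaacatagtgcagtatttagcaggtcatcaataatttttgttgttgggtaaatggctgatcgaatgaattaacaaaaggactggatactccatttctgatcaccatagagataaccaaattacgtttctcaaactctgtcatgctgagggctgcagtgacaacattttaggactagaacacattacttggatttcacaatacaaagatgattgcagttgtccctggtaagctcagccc
ACACB inner start: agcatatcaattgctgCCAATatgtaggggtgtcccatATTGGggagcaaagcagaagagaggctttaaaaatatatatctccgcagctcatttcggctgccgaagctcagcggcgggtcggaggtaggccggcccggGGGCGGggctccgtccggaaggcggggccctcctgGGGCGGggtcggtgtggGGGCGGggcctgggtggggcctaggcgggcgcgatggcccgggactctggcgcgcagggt
ACSL1 upstream start: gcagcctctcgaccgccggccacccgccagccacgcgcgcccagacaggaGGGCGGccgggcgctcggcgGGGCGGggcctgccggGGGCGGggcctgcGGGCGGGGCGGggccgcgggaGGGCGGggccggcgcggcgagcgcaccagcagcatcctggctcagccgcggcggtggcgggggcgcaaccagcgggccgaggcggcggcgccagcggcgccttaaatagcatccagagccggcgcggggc
ACSL1 innermost start: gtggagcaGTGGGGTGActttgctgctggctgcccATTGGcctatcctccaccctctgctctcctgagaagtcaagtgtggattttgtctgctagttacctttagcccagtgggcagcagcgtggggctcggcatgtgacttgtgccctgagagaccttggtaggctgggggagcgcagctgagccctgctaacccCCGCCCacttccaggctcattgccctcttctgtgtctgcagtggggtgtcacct
ELOVL6: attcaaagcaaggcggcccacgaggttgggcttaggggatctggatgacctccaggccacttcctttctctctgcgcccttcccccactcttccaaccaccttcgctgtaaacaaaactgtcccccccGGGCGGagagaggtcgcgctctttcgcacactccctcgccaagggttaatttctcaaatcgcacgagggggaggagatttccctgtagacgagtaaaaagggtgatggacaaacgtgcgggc

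The 2 reductase genes differed in these letters: the 250 bases of FAR1 held 3 NF-Y motifs and 2 GC boxes, and those of the upstream FAR2 start held 4 GC boxes and 0 NF-Y motifs. The inner FAR2 start held none of the motifs searched. The innermost ACSL1 start held the only sterol response element among the 17 start windows of 300 bases, and over all 34961 start windows 1.13% had one. The NF-Y letters were in 7 of the 17 windows against 34.6% of all windows, and the GC box was in 11 of 17 against 45.0%. The E-box CACGTG was in 0 of 17 windows against 7.27%, and the AP-1 motif TGANTCA was in 1, an ACSL1 start without a peak, against 7.68%. A match of letters describes these windows and does not show binding.

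All 10 windows had a peak in every library. In the 5 other gene lists counted below, 9 of 10, 14 of 16, 8 of 10, 6 of 6 and 5 of 7 genes did too. The share over all genes is not given. On average the resistant libraries covered more bases than the parental libraries in 10 of 10 windows, with a median ratio of 1.32 (range 1.06 to 1.94). Over the genes tested the median ratio was 1.35, and 89.0% of them had a ratio above 1. The 2 genes with an adjusted p under 0.05, FAR2 and ELOVL6, stood beside 10.2% of the 32585 genes tested that were higher in resistant cells by this rule, and 0 of 10 were lower beside 0.0614%. The test was a two-sided permutation of phenotype labels within treatment (400 assignments, Benjamini-Hochberg adjustment over all genes). Its smallest p was 0.005, so 3259 or more genes had to reach that p for any adjusted p to fall under 0.05, and 3358 did. At an unadjusted p under 0.05, 5 of 10 genes were higher (FAR2, ACACA, SCD, ACSL1 and ELOVL6), beside 37.1% of all genes, and 0 were lower, beside 0.448%. Both calls rest on that count over all genes: without 1 library at a time no gene kept an adjusted p under 0.05, except without untreated resistant replicate 2 or treated resistant replicate 2. With the gene span alone, without flanks, FAR2 differed by 527.5 bp (permutation p = 0.08, adjusted p = 0.193). The plot of ratios sets the 10 genes among all genes tested, and the difference between them was not tested.

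**Figure D1:**
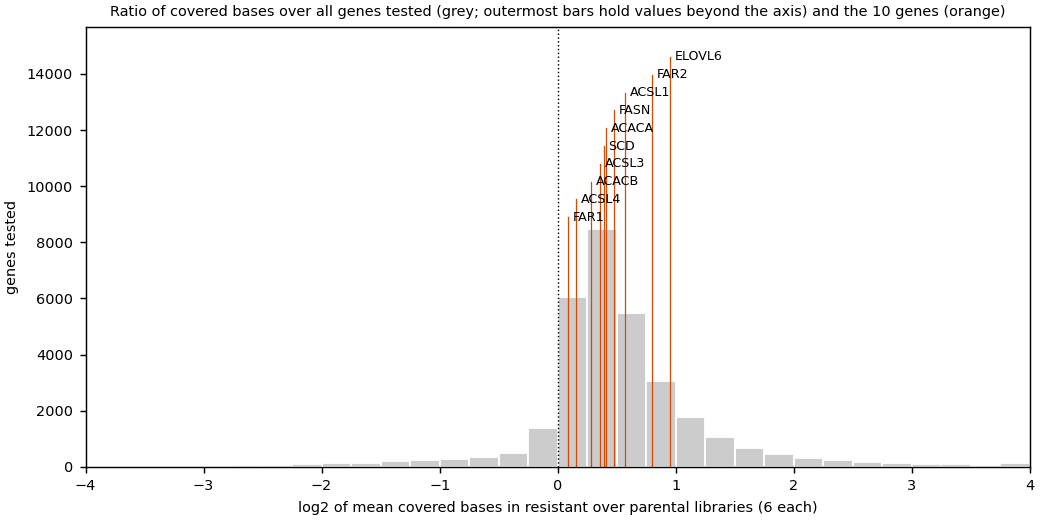
Number of genes tested (vertical axis) by the log2 ratio of mean covered bases in the 6 resistant over the 6 parental libraries (horizontal axis), in grey, with an orange line for each of the 10 genes. The bulk of all genes lies right of 0, and FAR2 and ELOVL6 lie farthest to the right among the 10, at ratios of 1.74 and 1.94.

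When covered bases were expressed per Mb covered in the library, 4 of the 10 genes kept a higher mean in resistant cells (FAR2, FASN, ACSL1 and ELOVL6) and 6 had a lower one. The median ratio of the 10 genes was then 0.969 against 1.00 over all genes. On this scale 1 of 10 genes, ELOVL6, had an unadjusted permutation p under 0.05 and was higher, beside 9.64% of all genes, and 0 were lower, beside 10.2%. No adjusted p was under 0.05 for any of the 32585 genes on this scale (0 percent called by this permutation test, smallest adjusted p 0.106, while 3142 genes were higher and 3327 lower before adjustment).

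**Figure D2:**
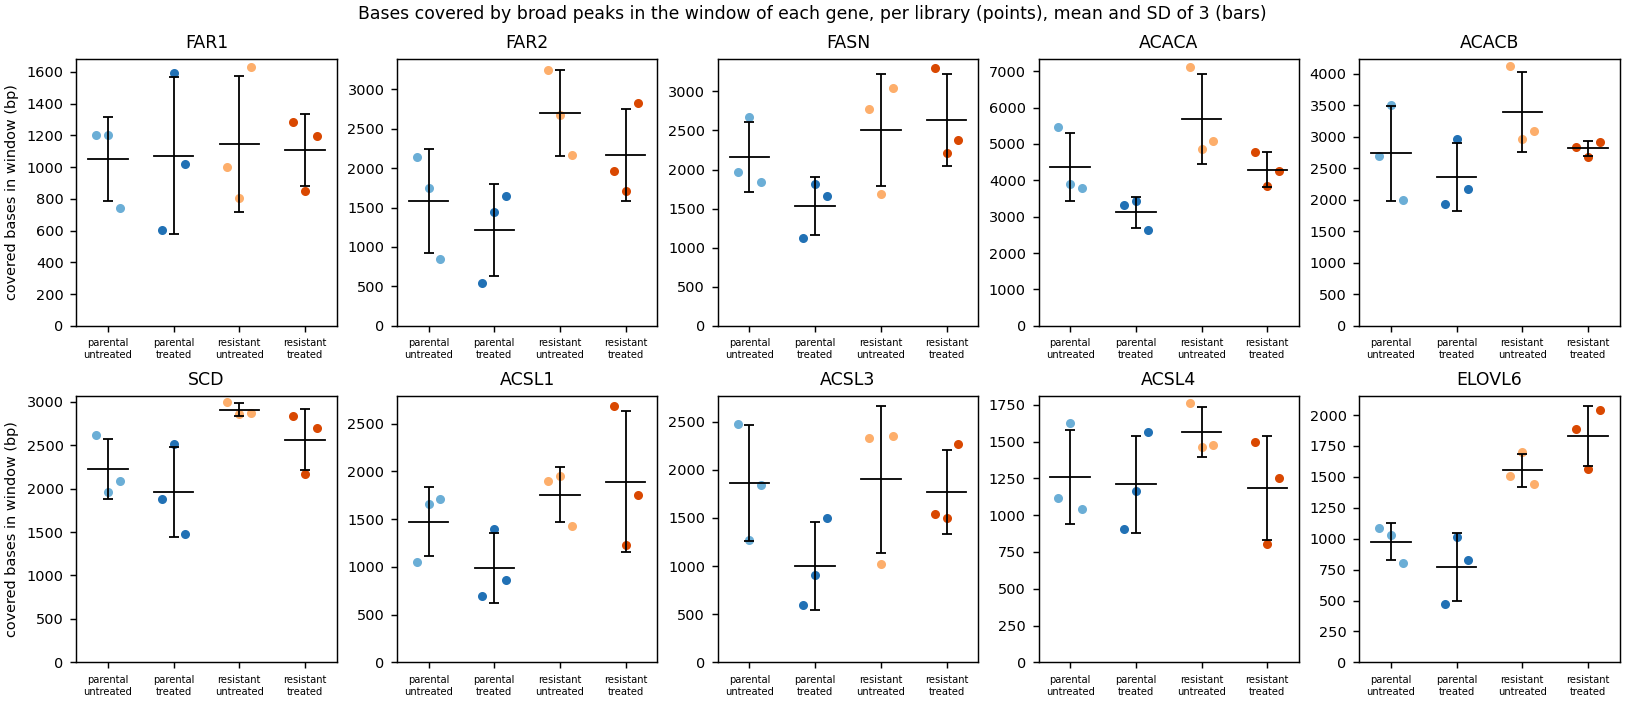
Covered bases in the window (vertical axis, bp, from 0) of each of the 10 genes in the 4 groups (horizontal axis), with a point for each library and the mean and SD of 3 libraries in black. In the ELOVL6 panel every resistant point lies above every parental point, in the FAR2 panel this holds within the untreated and within the treated libraries, and in the FAR1 panel the groups overlap.

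FAR2, a peroxisomal fatty acyl-CoA reductase, spans 186 kb at chr12:29149278-29335616. The study displayed FAR2 as an example of changed accessibility in these same data. The gene was thus picked with a difference already seen, and its p-values are not independent support for one. Its window had 2148, 1752 and 850 bp covered in untreated parental libraries and 546, 1441 and 1651 bp in treated parental libraries. It had 3250, 2680 and 2169 bp covered in untreated resistant libraries and 1970, 1707 and 2831 bp in treated resistant libraries. Within each treatment every resistant library was above every parental one. The means were 1398 ± 597 bp (SD, n = 6) in parental against 2435 ± 583 bp (SD, n = 6) in resistant cells, a difference of 1037 bp (permutation p = 0.005, adjusted p = 0.0485). The windows held 3 to 7 peaks, and the mean number of peaks differed by -1.17 in resistant cells (permutation p = 0.24). Per Mb covered, the difference was 21.3 bp (permutation p = 0.095), and divided by the smallest width it was 5.23 widths (permutation p = 0.165).

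Most of the mean difference at FAR2 lay in the region of its upstream start. The region chr12:29148233-29150203, made by merging overlapping peaks of all libraries, contains that start. It had 430, 743 and 114 bp covered in untreated parental libraries and 108, 0 and 512 bp in treated parental libraries. It had 1655, 1808 and 812 bp covered in untreated resistant libraries and 999, 660 and 1556 bp in treated resistant libraries. The lowest resistant library overlapped the highest parental one in bp, and the other resistant libraries lay above all parental libraries. The means were 318 ± 289 bp (SD, n = 6) and 1248 ± 484 bp (SD, n = 6), a ratio of 3.93 (permutation p = 0.005, adjusted p = 0.0467 over the 31745 regions called in 10 or more libraries). The same rule called 10.6% of those regions as higher in resistant cells.

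Divided by the smallest width of the library, the FAR2 start region differed by 7.86 widths (permutation p = 0.015, adjusted p = 0.104), and per Mb covered it differed by 30.3 bp (permutation p = 0.005, adjusted p = 0.0964). Per Mb covered, all 6 resistant libraries lay above all 6 parental ones, as in 0.964% of regions. No region passed the adjusted threshold on these 2 scales (0 percent called by this permutation test). The rest of the FAR2 window covered 1080 ± 464 bp (SD, n = 6) in parental against 1186 ± 272 bp (SD, n = 6) in resistant libraries, a difference of 106 bp (permutation p = 0.625). The start region held 22.7% of the covered bases of the window in parental and 51.3% in resistant cells.

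Within its own list the peak at the FAR2 start was of middling strength. Ordered by -log10 q with the strongest peak at 0%, it stood at 51.2%, 54.6% and 65.3% in untreated parental libraries and at 78.0% and 58.1% in the treated parental libraries that had it. It stood at 52.3%, 50.7% and 35.7% in untreated resistant and at 37.8%, 43.5% and 37.0% in treated resistant libraries. The authors' fold over local background ranged from 3.40 to 5.91 there. The treated parental library without this peak, replicate 2, was the one with the highest estimated depth, and it had peaks farther inside the gene.

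Of the other FAR2 regions, 2 were called in 10 or more libraries, and their libraries overlapped between phenotypes. The region chr12:29241873-29242832, 93.1 kb inside the gene, was called in 11 libraries and covered 355 ± 277 bp (SD, n = 6) in parental against 635 ± 170 bp (SD, n = 6) in resistant libraries (permutation p = 0.07). The region chr12:29317715-29318203, 169 kb inside the gene where the annotation also places FAR2-AS1, was called in all 12 libraries and covered 286 ± 115 bp (SD, n = 6) and 389 ± 71.1 bp (SD, n = 6) (permutation p = 0.06). The region chr12:29170967-29171222 was called in 3 of 6 parental and 0 of 6 resistant libraries and was not tested. Of 15 regions in the window, 10 were called in a single library. The inner FAR2 start, whose 300-base window held 2 CpG dinucleotides against 32 at the upstream start, had a peak in 0 libraries.

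**Figure D3:**
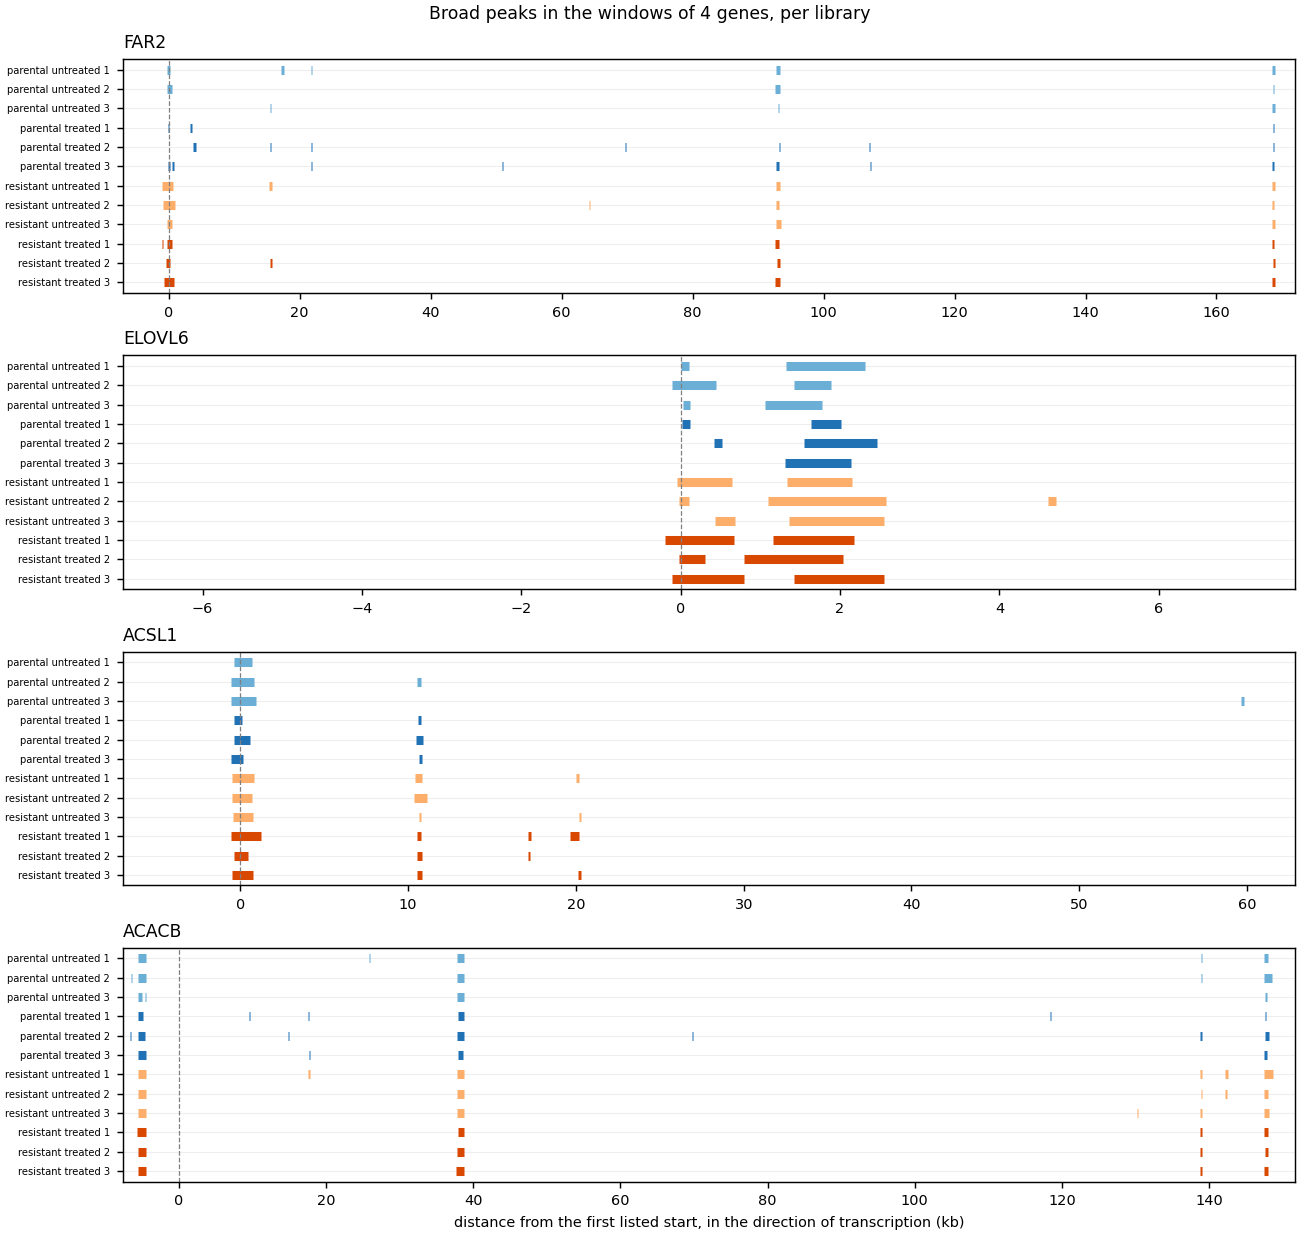
Peaks in each of the 12 libraries (rows, coloured by group) along the windows of FAR2, ELOVL6, ACSL1 and ACACB, by distance from the first listed start in the direction of transcription (horizontal axis, kb, a dashed line at 0). At the FAR2 start the resistant bars are mostly wider than the parental ones, and ELOVL6 has its peaks within 2.57 kb of the start apart from 1 resistant library. ACACB has no peak at its first listed start, which lies inside its span, but has peaks at the 5' end of the span.

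The pattern of FAR2 over the libraries was compared with that of 16972 protein-coding genes on the scale of bp per Mb covered. The genes with the most similar order of the 12 libraries were DENND11 on chromosome 7 (Spearman's rho 0.888), UTP6 on chromosome 17 (0.881) and FFAR4 on chromosome 10 (0.873). These values were picked as the highest of all genes and describe the 12 libraries, which share the totals used to scale them. FFAR4 had few covered bases, with means of 1.84 bp per Mb in parental and 6.69 in resistant libraries. The means at FAR2 were 66.6 and 87.9 bp per Mb.

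FAR1, the other fatty acyl-CoA reductase, had the strongest start of the 10 genes. Its start region chr11:13668061-13669317 was called in all 12 libraries and ranked between 0.247% and 1.23% of each list. The start region covered 819, 841 and 743 bp in untreated parental, 606, 657 and 823 bp in treated parental, 1001, 808 and 1240 bp in untreated resistant and 878, 849 and 1193 bp in treated resistant libraries. It differed by 247 bp (permutation p = 0.02), but divided by the smallest width it differed by -0.22 widths (permutation p = 0.79). The whole FAR1 window covered 1060 ± 355 bp (SD, n = 6) in parental against 1127 ± 308 bp (SD, n = 6) in resistant cells (permutation p = 0.745). The libraries of the phenotypes overlapped at the FAR1 start on both scales.

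**Figure D4:**
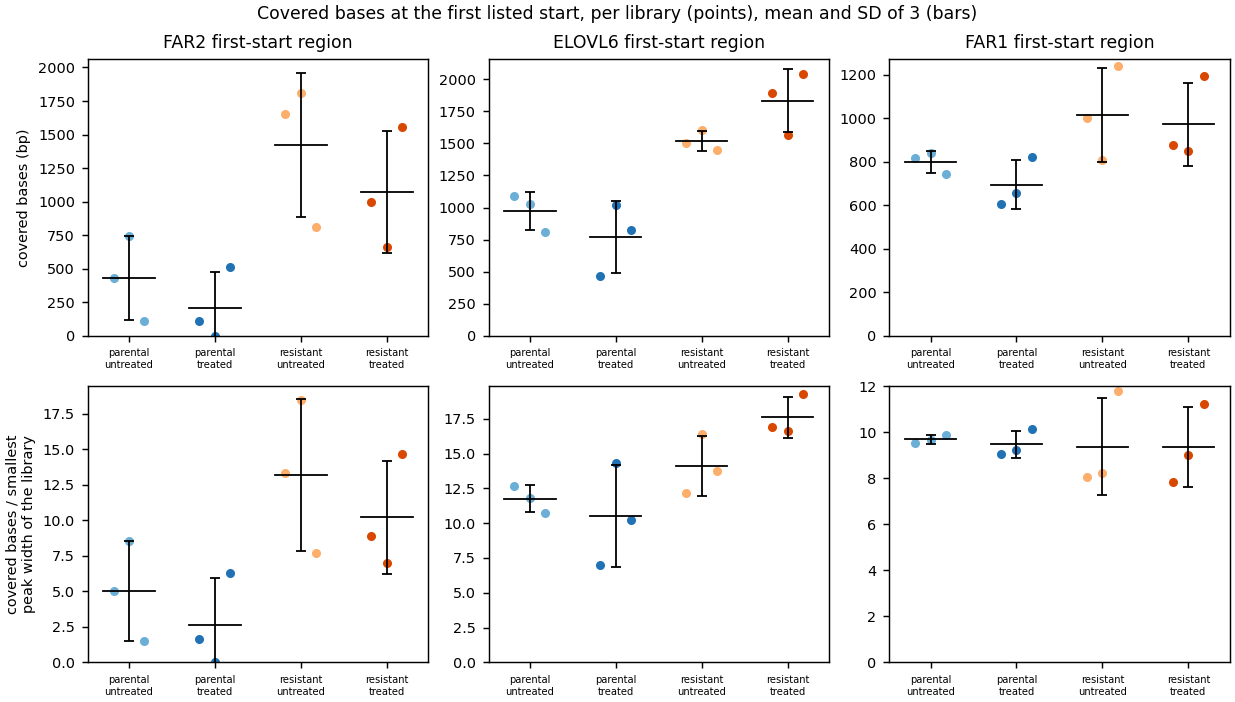
Covered bases at the first listed start of FAR2, ELOVL6 and FAR1 in each library (points, with mean and SD of 3 in black), in bp (upper row) and divided by the smallest peak width of the library (lower row), both axes from 0. FAR1 is near 10 widths in every group, while FAR2 has lower means in parental than in resistant groups in both rows, with some overlap of libraries.

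ELOVL6, the elongase that extends palmitate to stearate, had 2 regions in its 163-kb window. The window covered 1090, 1028 and 806 bp in untreated parental and 470, 1017 and 826 bp in treated parental libraries. It covered 1506, 1703 and 1446 bp in untreated resistant and 1890, 1564 and 2042 bp in treated resistant libraries. All 6 resistant libraries lay above all 6 parental ones, as in 4.57% of the genes tested. The means were 873 ± 228 bp (SD, n = 6) and 1692 ± 234 bp (SD, n = 6), a ratio of 1.94 (permutation p = 0.005, adjusted p = 0.0485). Per Mb covered the difference was 19.7 bp (permutation p = 0.005, adjusted p = 0.106) and the libraries overlapped, as at all 10 genes on that scale, where 1.54% of genes had no overlap with resistant libraries above. Divided by the smallest width it was 4.88 widths (permutation p = 0.01, adjusted p = 0.115).

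The ELOVL6 bases lay in chr4:110196042-110198813, 2772 bp wide, which runs from the listed start into the gene. Its peaks formed a group at the start and a group between 0.795 and 2.57 kb downstream. A split at 0.75 kb, chosen after the peaks were seen, gave 159 ± 200 bp (SD, n = 6) at the start in parental and 528 ± 335 bp (SD, n = 6) in resistant libraries (permutation p = 0.07). Downstream it gave 714 ± 248 bp (SD, n = 6) and 1147 ± 221 bp (SD, n = 6) (permutation p = 0.015, and 0.33 when divided by the smallest width). Neither part on its own separated all libraries, and the 300-base window of the start itself overlapped a peak in 9 libraries. The rank of the region, 33.2% to 72.8%, did not differ detectably between phenotypes (permutation p = 0.255).

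SCD, the stearoyl-CoA desaturase that makes oleate and palmitoleate, had 3 regions called in all 12 libraries. Its start region, chr10:100345632-100347588, covered 1002 ± 235 bp (SD, n = 6) in parental against 1406 ± 261 bp (SD, n = 6) in resistant libraries (permutation p = 0.005, adjusted p = 0.0467). Divided by the smallest width the difference was 0.285 widths (permutation p = 0.835). Its rank differed the other way, from 21.9% ± 3.50 (SD, n = 6) in parental to 27.8% ± 2.17 (SD, n = 6) in resistant lists, which is farther from the top (permutation p = 0.015, adjusted p = 0.108). A region 4.68 kb before the start, chr10:100342308-100342793, also ranked at 18.7% ± 6.65 (SD, n = 6) in parental against 30.8% ± 4.08 (SD, n = 6) in resistant lists (permutation p = 0.01, adjusted p = 0.0925). In that region the covered bases rose from a range of 171 to 395 bp to a range of 402 to 471 bp. Scaled to the library, they differed by 0.502 widths (permutation p = 0.37) and by 1.84 bp per Mb covered (permutation p = 0.46). A region at the far end of SCD ranked 11.1% ± 3.41 (SD, n = 6) and 10.7% ± 2.98 (SD, n = 6).

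The acetyl-CoA carboxylases make malonyl-CoA, ACACA in the cytosol and ACACB at the outer mitochondrial membrane. ACACA, with a span of 322 kb, had 28 regions, and 2 of its 3 listed starts were open in all 12 libraries. Its upstream start region chr17:37406063-37407774, which also reaches TADA2A, covered 1053 ± 234 bp (SD, n = 6) in parental against 1349 ± 206 bp (SD, n = 6) in resistant libraries (permutation p = 0.055). The region of the inner start, chr17:37358405-37359863, ranked higher in the lists, between 4.55% and 14.5%, and covered 1192 ± 138 bp (SD, n = 6) and 1283 ± 97.3 bp (SD, n = 6) (permutation p = 0.245). The innermost listed start had a peak in 0 libraries. Over the window ACACA covered 3751 ± 945 bp (SD, n = 6) and 4988 ± 1133 bp (SD, n = 6) (permutation p = 0.025, adjusted p = 0.0867), and per Mb covered the difference was -6.28 bp (permutation p = 0.775).

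ACACB had a peak at its first listed start, which lies inside the gene span, in 0 libraries and at its inner start in all 12. The inner start region chr12:109154245-109155396, 38.2 kb downstream, ranked at 25.3%, 22.9% and 29.3% in untreated parental and at 38.1%, 20.3% and 34.6% in treated parental lists. It ranked at 8.40%, 15.3% and 13.9% in untreated resistant and at 8.21%, 22.6% and 20.8% in treated resistant lists. The resistant ranks were nearer the top by 13.5 percentage points on average, with overlap only through treated libraries (permutation p = 0.015, adjusted p = 0.108). The covered bases of the same region differed by 113 bp (permutation p = 0.115), by -1.96 widths (permutation p = 0.06) and by -7.28 bp per Mb covered (permutation p = 0.105). The lists that the ranks come from differed in length and depth, and their part in the result was not tested. Another constant region, chr12:109110896-109112059, was called in all 12 libraries and contains the 5' end of the ACACB span, chr12:109111189. The annotation also places UNG there. The rank of this region differed by -1.46 points (permutation p = 0.655).

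FASN, the multi-enzyme synthase itself, had its strongest region at its higher-coordinate end, chr17:82097345-82099182, ranking between 5.34% and 17.3%. Its rank was 12.3% ± 2.82 (SD, n = 6) in parental against 8.69% ± 2.14 (SD, n = 6) in resistant lists (permutation p = 0.02, adjusted p = 0.125), but ordered by the authors' fold the difference turned to 4.90 points in the opposite direction (permutation p = 0.165). A weak region beyond the other end, chr17:82071790-82073987, ranked farther from the top by 19.8 points in resistant lists (permutation p = 0.03, adjusted p = 0.153). That region lay mostly outside the FASN window and overlapped its edge, and its values count all its bases. Its covered bases went the other way, higher in resistant libraries by 620.5 bp (permutation p = 0.01, adjusted p = 0.0574). The difference was 3.80 widths (permutation p = 0.045) and 15.2 bp per Mb covered (permutation p = 0.04). The FASN window covered 1846 ± 502 bp (SD, n = 6) in parental against 2568 ± 590 bp (SD, n = 6) in resistant libraries (permutation p = 0.05, adjusted p = 0.126).

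Among the long-chain acyl-CoA synthetases, which activate fatty acids, ACSL1 had 5 regions, of which 1 was called in all 12 libraries. The listed starts used here include 5 for it, and the upstream one, in chr4:184824754-184826537, was open in all 12 libraries. Its rank was 41.6% ± 13.0 (SD, n = 6) in parental against 26.0% ± 6.94 (SD, n = 6) in resistant lists (permutation p = 0.035, adjusted p = 0.164). The region chr4:184805636-184806304, at the innermost start with the sterol response letters printed above, was called in 0 of 6 parental libraries, 2 of 3 untreated resistant and 2 of 3 treated resistant libraries. Its peaks were weak, with ranks of 83.5% to 90.3% and folds of 3.21 to 3.61. A region inside ACACA, chr17:37239873-37240242, had the same layout, with ranks of 64.6% to 80.4% and folds of 3.42 to 4.43. Regions called in 0 of 6 parental and at least 4 of 6 resistant libraries made up 1.65% of the regions called in 2 or more libraries. A further ACSL1 region, at chr4:184814851-184815624, was missing in 2 untreated parental libraries and present in the other 10.

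Outside its upstream start region the ACSL1 window covered 0, 256 and 207 bp in untreated parental and 226, 439 and 184 bp in treated parental libraries. It covered 573, 774 and 286 bp in untreated resistant and 932, 415 and 493 bp in treated resistant libraries there, a difference of 360 bp (permutation p = 0.01). The whole ACSL1 window covered 1230 ± 423 bp (SD, n = 6) and 1825 ± 507 bp (SD, n = 6) (permutation p = 0.045, adjusted p = 0.12), but the difference was 5.67 bp per Mb covered (permutation p = 0.545) and 1.26 widths (permutation p = 0.655).

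ACSL3, which activates fatty acids at the endoplasmic reticulum and lipid droplets, had the next strongest start after FAR1, at ranks of 2.04% to 7.35% in chr2:222860799-222861712. Its rank was 4.07% ± 2.23 (SD, n = 6) in parental against 4.11% ± 1.71 (SD, n = 6) in resistant lists (permutation p = 0.95). ACSL4, which prefers arachidonate, had its start region at chrX:109732457-109733836. Its rank was 25.4% ± 13.4 (SD, n = 6) in parental against 14.7% ± 3.90 (SD, n = 6) in resistant lists (permutation p = 0.04, adjusted p = 0.176), with a single treated parental library at 52.2%. The windows of ACSL3 and ACSL4 differed by 404 bp (permutation p = 0.275) and 140 bp (permutation p = 0.42).

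**Figure D5:**
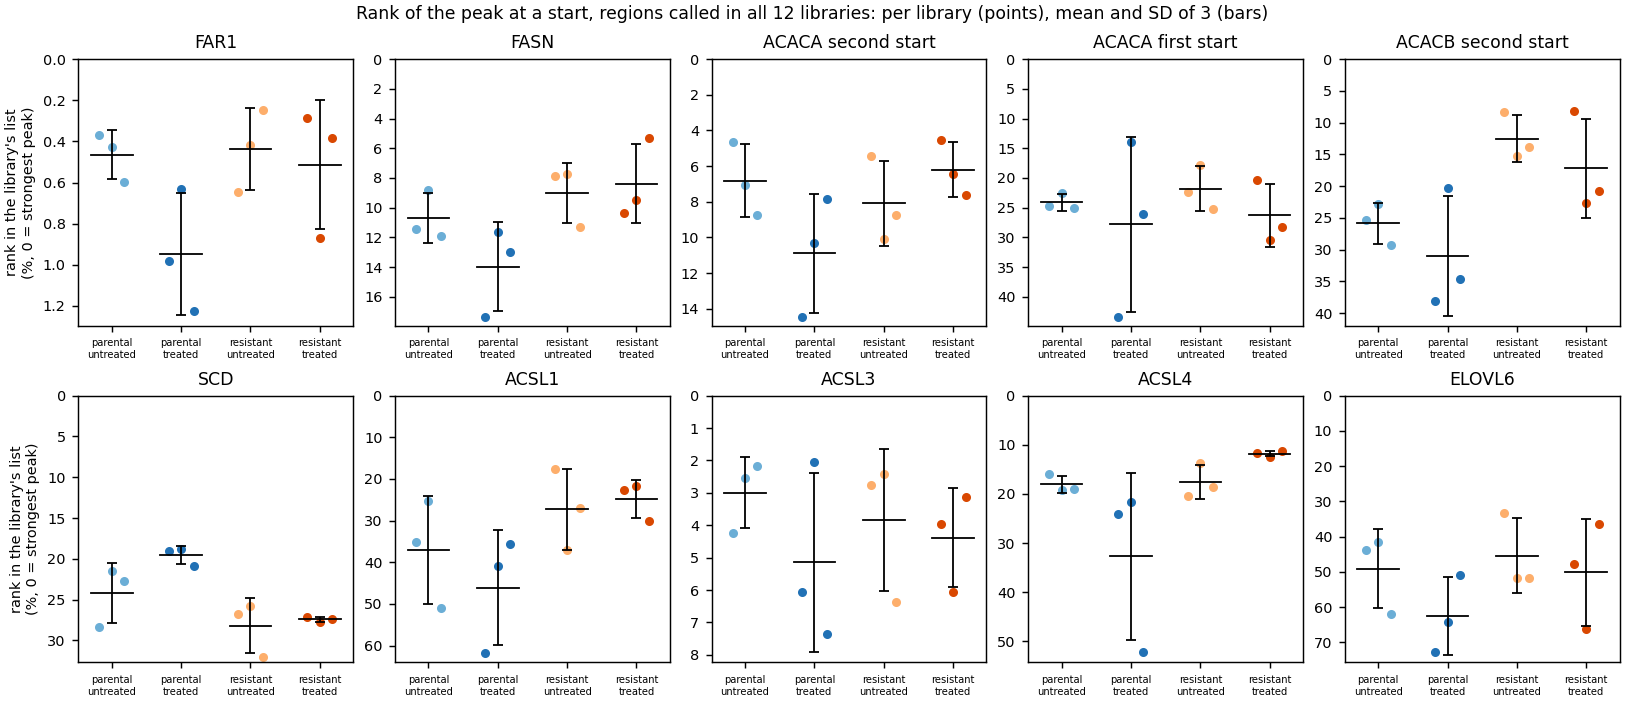
Rank of the peak at a start within the library's list (vertical axis, percent, with the strongest peak of the list at 0 on top) for start regions called in all 12 libraries, by group (horizontal axis), with points for libraries, the mean and SD of 3 in black, and FASN at its higher-coordinate end. FAR1 stays within 1.23% of the top, the ACACB inner start lies nearer the top in resistant lists, and SCD lies farther from it.

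Covered bases were tested in the 24 regions of the 10 genes that were called in 10 or more libraries. In bp, 4 had an adjusted permutation p under 0.05 and were higher in resistant cells, the start regions of FAR2, ELOVL6 and SCD and the region before SCD, beside the 10.6% above. At an unadjusted p under 0.05, 8 were higher, beside 39.9% of regions, and 0 were lower, beside 0.602%. Divided by the smallest width, 3 were higher, at FAR2, ELOVL6 and the weak FASN region, beside 6.75%, and 0 were lower, beside 16.3%. The weak FASN region lay mostly outside the FASN window. Per Mb covered, the same 3 regions were higher, beside 8.48%, and 0 were lower, beside 13.2%. All 6 resistant libraries lay above all 6 parental ones at 2 regions in bp, ELOVL6 and the region before SCD, beside 4.89%, and at 0 regions divided by the smallest width, beside 0.721%.

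Over the 10 genes, 19 regions were called in 12 libraries, and 7 of them had an unadjusted rank p under 0.05 by phenotype. The 4 nearer the top in resistant lists were at ACACB, ACSL1, ACSL4 and the higher-coordinate end of FASN, beside 13.4% of all 24148 such regions. The 3 farther from the top were 2 at SCD and 1 at FASN that lay mostly outside its window, beside 10.7%. None had an adjusted p under 0.05 (0 percent of regions called by the permutation test over all regions, smallest adjusted p 0.0725). Of the 4 regions of these genes called in 5 to 7 libraries, 0 differed in presence by phenotype by Fisher's exact test at an unadjusted p under 0.05, beside 11.4% of the 9507 regions tested, and 0 by treatment, beside 1.39%.

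Oxamate treatment was compared in both phenotypes. No gene had an adjusted p under 0.05 by treatment in either direction (0 percent called by the permutation test). At an unadjusted p under 0.05, 1 of the 10 genes, ACACA, was lower in treated libraries, beside 12.8% of all genes, and 0 were higher, beside 0.0921%. The ACACA window covered 5455, 3886 and 3791 bp in untreated parental and 3309, 3427 and 2637 bp in treated parental libraries. It covered 7111, 4852 and 5077 bp in untreated resistant and 4787, 3843 and 4255 bp in treated resistant libraries. In both phenotypes all treated libraries lay below all untreated ones, and the mean difference was -1319 bp (permutation p = 0.005, adjusted p = 0.314). Per Mb covered the difference was -14.9 bp (permutation p = 0.405). Divided by the smallest width it was -9.98 widths (permutation p = 0.02, adjusted p = 0.504). Treated libraries covered fewer bases in the median gene as well, with a ratio of 0.841 over all genes and 0.864 over the 10.

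Inside ACACA the region chr17:37339348-37339645, 67.3 kb from the upstream start, was called in 3 of 3 untreated parental, 0 of 3 treated parental, 3 of 3 untreated resistant and 3 of 3 treated resistant libraries. Among regions called in 9 libraries, 16.4% had this layout. Its ranks ran from 42.9% to 92.7%. No member differed in its rank by treatment at an unadjusted permutation p under 0.05, beside 9.16% of regions. At FAR2 treatment changed the window by -371 bp in parental cells (exact permutation p = 0.5) and by -530 bp in resistant cells (exact permutation p = 0.3), where 3 against 3 libraries cannot go below 0.1. The response to treatment did not differ detectably between phenotypes for any of the 10 windows in bp (0 at an unadjusted permutation p under 0.05, beside 4.41% of genes, with the smallest p, 0.07, at ELOVL6).

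Other genes of the pathway were counted in 5 lists. Among 10 genes of acetyl-CoA supply and its regulators, 2 had an adjusted permutation p under 0.05 and were higher in resistant cells, beside the 10.2% of all genes tested, a share that the counts of all 5 lists are to be read against. SREBF1, which encodes a sterol regulatory element binding protein, rose by 2009 bp, but per Mb covered it differed by 18.4 bp (permutation p = 0.31). SLC25A1, the mitochondrial citrate carrier, rose by 635 bp, but per Mb covered it differed by -1.28 bp (permutation p = 0.845). SCAP, the escort protein of those factors, differed by 1038 bp (permutation p = 0.01, adjusted p = 0.0611). In elongation and desaturation 1 of 15 tested genes was higher, FADS1 by 661 bp, while FADS2 differed by 876 bp and SCD5 by 535 bp (permutation p = 0.01 for each, adjusted p = 0.0611). Of 9 acyl-CoA synthetase and transport genes 2 were higher, SLC27A1 by 809 bp and ACSL6 by 683 bp, and SLC27A4 differed by 478 bp (permutation p = 0.03). Per Mb covered, FADS1 differed by 5.69 bp (permutation p = 0.465), SLC27A1 by -0.13 bp (permutation p = 0.98) and ACSL6 by 18.9 bp (permutation p = 0.005).

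In mitochondrial fatty acid synthesis 0 of 6 genes passed, and MCAT, the malonyl transferase, differed by 515 bp (permutation p = 0.01), MECR by 683 bp (permutation p = 0.055) and ACSF3 by 567 bp (permutation p = 0.06). Among 5 tested genes listed under fatty alcohol use, not all of which act on fatty alcohols themselves, 1 was higher. GNPAT, the acyltransferase that starts ether lipid synthesis, rose by 622 bp. PEX7, the import receptor for a peroxisomal enzyme of that route, differed by 244 bp (permutation p = 0.01), and PEDS1, which forms the vinyl ether bond of plasmalogens, by 480 bp (permutation p = 0.105). In none of the 5 lists was a gene lower in resistant cells at an unadjusted permutation p under 0.05. The medians of the ratio ran from 1.25 to 1.49 beside 1.35 over all genes. Per Mb covered, 3 genes of these lists were higher at an unadjusted permutation p under 0.05 (SCAP, ACSL6 and GNPAT), beside 9.64% of all genes, and 3 were lower (ACSS2, OXSM and SOAT1), beside 10.2%, with these 3 named after their values were seen.

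The listed starts were also grouped by CpG content, with class limits set after the values were seen and no test. Of the 10 listed starts with 20 or more CpG dinucleotides in 300 bases, 8 had a peak in all 12 libraries, and the exceptions were the upstream FAR2 start with 11 and ELOVL6 with 9. Over all listed starts, 68.3% of 14420 such starts had a peak in 12 libraries. Of the 7 member starts with fewer than 10 CpG, 0 had a peak in all 12 libraries and 4 had one in 0, against 3.69% and 85.5% of 15216 such starts. The other 3 were ACSL1 starts with 7, 4 and 5 CpG, which had a peak in 10, 4 and 2 libraries. In all, 8 of 17 member starts were open in every library, beside 35.6% of all listed starts.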

How the data were processed

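ATAC-seq peak lists of 12 MIAPaCa2 libraries, 4 groups of 3, were used. Per the submitters' processing notes and the study's methods, the authors mapped reads with Bowtie2 2.1.0 to hg38, dropped reads from mitochondria, PCR duplicates and reads that mapped to several places, and ran MACS2 for broad peaks on each library in paired-end mode (version not given in the sources used here). The deposited lists give a score, a fold ratio over local background, and p-values and q-values as -log10. No read counts were used. Replicates were not pooled.

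The peaks kept were those on chromosomes 1 to 22 and X, and 0.892% of the 677901 peaks lay on other contigs. Bases covered by peaks were summed in each window (RefSeq GRCh38.p14 gene span plus 5 kb on both sides). Windows with a peak in 3 or more libraries were tested. Overlapping peaks (1 bp or more) of all libraries were merged into regions, ranked by -log10 q within each list. Relative depth was estimated from the fold ratio and p-value shared by most peaks of a list, which fix a Poisson background per smallest peak width. It is relative to the shallowest library and gives no counts, so intervals for counting error are not given.

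Phenotype was tested by two-sided exact permutation within treatment and treatment within phenotype, with Benjamini-Hochberg adjustment over all genes or regions. The scripts were tested on simulated data and ran in Python 3.11.15 with numpy 2.4.6, pandas 2.3.3, scipy 1.17.1 and matplotlib 3.10.9. All 10 genes were named, and of each other list at most the 3 with the smallest p. The members and lists were chosen with earlier results of these data known. Alternatives were a stricter q, equal numbers of peaks, shares of the covered total, width scaling, peak numbers, other windows and filters, rank by fold, a block for replicate number, and fits that omit 1 library. The tests of covered bases by region were chosen after seeing the data. The gene table gave no exons, so exonic or intronic position is not stated.

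Same-numbered libraries did not pair: of 18 same-number pairs, 2 had deviations correlated above 0.1 (range -0.140 to 0.169), and 4 of 12 libraries correlated best with their own number.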

Additional observations from a re-analysis of the deposited data

Results flagged for a closer look

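At ACSL4 the response to oxamate differed between phenotypes at an unadjusted p under 0.05 per Mb covered and in rank, but not in bp. In bp the difference for the window was -335 (permutation p = 0.37, adjusted p = 0.876). The share of all genes or regions under that p per Mb or in rank is not given. Per Mb covered, the response of resistant cells minus that of parental cells was -28.2 bp for the window (permutation p = 0.015, adjusted p = 0.836 over all genes). For the rank of its start region the difference was -20.4 percentage points (permutation p = 0.005, adjusted p = 0.836 over all regions). The rank rests in part on treated parental replicate 3, at 52.2%, and neither value passed the adjustment.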

How the results depend on the processing

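The number of genes that differed in covered bases by phenotype was 3358, of which 2 were among the 10. With peaks of -log10 q of 3 or more it was 8368, with 4 of the 10 (FAR2, SCD, ACSL3 and ELOVL6), and with equal numbers of top peaks 6159. It was 0, with 0 of the 10, on shares of the covered total, divided by the smallest width, by number of peaks, without flanks and with genes kept from 1 library, and 0 for regions divided by the smallest width. Leaving out a library gave 0 to 6561 genes and 0 to 2 of the 10. With the replicate block, 64 assignments allowed no p below 0.0313, and 0 genes and 0 of the 10 passed. The numbers do not pair the libraries. Regions that differed by phenotype numbered 0 in presence (307 at the stricter q) and 0 in rank (3093), and 0 to 0 without a library. The direction reversed for 6 genes as shares (per Mb), FAR1 -11.2, ACACA -6.28, ACACB -13.1, SCD -5.38, ACSL3 -1.98 and ACSL4 -12.4 bp. It reversed for the same 6 in widths, FAR1 -3.02, ACACA -1.65, ACACB -3.58, SCD -1.36, ACSL3 -0.899 and ACSL4 -2.97. By number of peaks it reversed for FAR1 (-0.833), FAR2 (-1.17), ACACB (-0.667), SCD (-0.667), ACSL3 (-1.33) and ACSL4 (-0.167). FAR1 reversed without untreated parental replicate 3 (-9.58), treated parental replicate 1 (-49.4) or untreated resistant replicate 3 (-53.8), and ranged up to 197 bp without treated parental replicate 2. Ranked by fold, the FASN end region gave 4.90, and at the stricter q the SCD start region gave -2.06. The causes were not tested. With the reversals above included, 114 of 134 values of single genes and regions kept their direction under alternatives that keep all libraries, and 237 of 240 did without a library. Without a library the FAR2 window differed by 853 to 1178 bp and its start region by 809 to 1084 bp, the ELOVL6 window by 744 to 886 bp, and ACACA by treatment by -1526 to -961 bp.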
